A study of Mus musculus with 3 samples.

Results

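A set of 10 collagen genes was followed through single cells of the healing fracture, chosen by name from the 32285 genes of the count tables. Of these 10, Col9a1, Col9a2, and Col9a3 encode the chains of collagen IX, Col12a1, Col14a1, Col16a1, and Col22a1 encode other collagens with interrupted triple helices that bind to fibrils, and Col10a1 encodes collagen X. Col13a1 and Col24a1 complete the list, although collagen XIII is a transmembrane collagen and collagen XXIV a fibrillar collagen, so neither is fibril-associated in the strict sense. All 10 genes were found.

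Collagen IX is built from 3 different chains and sits on the surface of the collagen II and XI fibrils of cartilage, where it links fibrils to other matrix proteins. Collagen X forms a network around hypertrophic chondrocytes, the large cells at the end of cartilage maturation, and Col10a1 is the standard marker of that state. Collagens XII and XIV attach to collagen I fibrils in periosteum, tendon, and other dense connective tissue, collagen XVI is found in several connective tissues, and collagen XXII is known from tissue junctions. In a fracture that heals through cartilage, chondrocytes first deposit a matrix of collagens II, IX, and XI, and then mature and deposit collagen X before the cartilage is replaced by bone.

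The cells came from the callus of pinned femoral fractures in mice of C57BL/6 background, operated under isoflurane with buprenorphine for pain. The callus was cleaned of muscle and marrow and digested with collagenase, and live cells negative for CD45, CD31, and TER119 were sorted. Each of the 3 libraries held callus cells of 1 day, day 7, day 10, or day 14 after fracture. No transgene or other treatment is named for these libraries in the sources used here. The number of animals behind a library is not given in the sources used here, and with 1 library per day a difference between days could also be one between libraries. Each mRNA molecule was counted once by its unique molecular identifier (UMI), and levels are the UMIs of a gene per 1000000 UMIs (CPM), summed over the cells of a group. Their 95% intervals are exact Poisson intervals and cover counting error only.

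The day 7 library stood apart. Of its 7017 cells within the limits on quality, 6284 had 2 or more UMIs of Ptprc, which encodes the CD45 the sort was meant to remove, and only 447 had none. On day 10 and day 14, 6587 of 6593 and 9680 of 9853 cells had no Ptprc UMI. Unless stated otherwise, further values are from cells without Ptprc UMIs, whose median depth was 6763 UMIs on day 7, 17372 on day 10, and 15838 on day 14. The 3 pairs of libraries shared 13 to 26 cell barcodes among cells within the limits. Values of day 7 rest on small groups, in which blood cell markers (Ptprc, S100a8, S100a9, Lyz2, and Cd79a) still summed to 1244 to 1703 CPM, and they are given beside the others without a call. The part of these markers in them was not tested.

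Cells were grouped by 5 marker genes. Aspn (asporin) is a gene of periosteal and other fibrous progenitors, Cnmd (chondromodulin) that of chondrocytes, Ihh (Indian hedgehog) that of prehypertrophic and hypertrophic chondrocytes, Ifitm5 that of osteoblasts, and Rgs5 that of pericytes. A cell counted as high for Aspn at 15, Cnmd at 10, Ihh at 2, Ifitm5 at 5, and Rgs5 at 10 UMIs per 10000 UMIs of the cell, with at least 2 UMIs. Cells high for both Cnmd and Ihh, and cells high for both Aspn and Cnmd, were kept as groups of their own. On day 10, there were 1393 Aspn-high, 322 Aspn-and-Cnmd-high, 2587 Cnmd-high, 291 Cnmd-and-Ihh-high, 386 Ihh-high, 120 Ifitm5-high, and 67 Rgs5-high cells, and 1400 cells were high for no marker. On day 14, the same groups held 3327, 232, 1688, 258, 1095, 354, and 166 cells, with 2457 high for no marker. Day 7 had 59 Cnmd-high cells, and its other marker groups had 17 cells or fewer.

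Other genes known for these cell types followed the groups on day 10 only in part. The 4 further markers of the Aspn group (Postn, Ogn, Ptn, and Thbs2) summed to 8619 CPM in Aspn-high cells on day 10, against 1176 CPM in Cnmd-high cells. The 5 chondrocyte markers (Acan, Matn1, Ucma, Sox9, and Hapln1) summed to 10096 CPM in Cnmd-high cells, against 1599 CPM in Aspn-high cells. They did not separate Cnmd-high cells from the cells high for Ihh, with 13798.5 CPM in Cnmd-and-Ihh-high and 7066 CPM in Ihh-high cells. The 5 osteoblast markers (Bglap, Bglap2, Dmp1, Sp7, and Phex) summed to 13198 CPM in Ifitm5-high cells against 350 in Ihh-high cells. The 5 markers of the Ihh group (Alpl, Panx3, Runx2, Mef2c, and Ibsp) did not separate it from osteoblasts, since they summed to 39128 CPM in Ihh-high and 68013 CPM in Ifitm5-high cells. In the marker groups, blood cell markers summed to at most 55.6 CPM on day 10 and 196 CPM on day 14, and those of endothelial cells, muscle, and Schwann cells to at most 8.51 CPM each. Tendon markers (Scx, Tnmd, and Mkx) summed to 552 and 590 CPM in Aspn-high cells.

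By the GENCODE M21 annotation of GRCm38, the genes lie apart from each other, on 7 chromosomes. The collagen IX genes are Col9a1 at chr1:24177610-24252684, Col9a2 at chr4:121039385-121055322, and Col9a3 at chr2:180597790-180622189, all on the plus strand. Col10a1 is a short gene at chr10:34389981-34397085 on the plus strand, overlapping Nt5dc1 on the opposite strand. Col12a1 lies at chr9:79598991-79718831, Col14a1 at chr15:55307750-55520803, Col16a1 at chr4:130047840-130099283, Col22a1 at chr15:71795795-72034227, Col13a1 at chr10:61838236-61979108, and Col24a1 at chr3:145292472-145552011. Genes on the opposite strand also overlap Col9a3, Col12a1, Col14a1, Col22a1, and Col24a1, and D530037P16Rik overlaps Col24a1 on the same strand, so reads of Col24a1 may be shared with it. How the authors' counting treated strand is not given in the sources used here.

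Sequences before the starts of Col9a1, Col9a2, and Col10a1 are shown because the levels of these genes differ in opposite directions between the cartilage groups. RefSeq (GRCm38.p6) gives 250 bases before the start for 6 of the 10 genes, and Col9a1 has 2 starts, which 3′ counts cannot tell apart. The upstream start of Col9a1 follows chr1:24177360-24177609, that of Col9a2 chr4:121039316-121039565, and that of Col10a1 chr10:34389731-34389980, all on the plus strand, with capitals for TATAAA. The RefSeq start of Col9a2 lies inside the GENCODE span of the gene.
Col9a1 upstream start: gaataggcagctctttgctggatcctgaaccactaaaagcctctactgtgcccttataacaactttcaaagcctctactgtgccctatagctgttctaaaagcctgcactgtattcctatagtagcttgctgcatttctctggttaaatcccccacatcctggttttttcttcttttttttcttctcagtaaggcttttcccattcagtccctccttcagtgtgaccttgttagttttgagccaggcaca
Col9a2: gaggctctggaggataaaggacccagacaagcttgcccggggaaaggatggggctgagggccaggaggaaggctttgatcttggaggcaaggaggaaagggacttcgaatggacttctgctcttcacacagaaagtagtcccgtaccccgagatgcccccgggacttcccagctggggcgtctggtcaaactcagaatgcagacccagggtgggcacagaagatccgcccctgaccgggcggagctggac
Col10a1: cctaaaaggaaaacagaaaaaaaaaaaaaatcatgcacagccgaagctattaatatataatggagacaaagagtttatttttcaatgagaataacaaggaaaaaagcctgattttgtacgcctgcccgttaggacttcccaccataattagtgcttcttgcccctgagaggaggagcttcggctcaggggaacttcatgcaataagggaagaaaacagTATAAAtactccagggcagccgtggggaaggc
Of the 3 sequences, that of Col10a1 holds 1 TATAAA on its own strand, a motif found in 7.59% of the 32851 windows of this length before all starts. None of the 3 holds AACAAT, a core of the Sox motif, or TGTGGT, a core of the Runx motif, on either strand, and the shares of all windows that hold them are 9.42% and 14.0%. These letters describe the windows only.

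Collagen IX genes were highest in Cnmd-high cells and in cells high for both Cnmd and Ihh, and were lower in Ihh-high cells, where Col10a1 was highest. Col9a1, the chain with a large amino-terminal domain in cartilage, stood at 5508 CPM in Cnmd-high cells on day 7, 4653 on day 10, and 3797 on day 14. In Ihh-high cells, it stood at 1279 CPM on day 10 and 778 CPM on day 14. Col9a1 was thus lower in the Ihh-high group on either day, with intervals far apart (4634 to 4672 against 1252 to 1306 CPM on day 10).

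Col9a2 in Cnmd-high cells was at 3581 CPM on day 7, 4716 on day 10, and 4178 on day 14, and in Ihh-high cells at 2281 CPM on day 10 and 1561 CPM on day 14. Col9a3 in Cnmd-high cells was at 6585, 7143, and 5919 CPM on the 3 days, and in Ihh-high cells at 2560 CPM on day 10 and 1676 CPM on day 14. Both chains followed Col9a1 in direction. In cells high for both Cnmd and Ihh, the chains stayed near the level of Cnmd-high cells on these 2 days: Col9a1 stood at 4537 and 3796 CPM, Col9a2 at 4972 and 4400 CPM, and Col9a3 at 6918 and 5942 CPM on day 10 and day 14.

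Col10a1 stood at 185 CPM in Cnmd-high cells on day 7, 571 CPM on day 10, and 970 CPM on day 14. It was at 7881 and 8567 CPM in cells high for both markers, and at 26199 and 24708 CPM in Ihh-high cells on day 10 and day 14, so the between group lay between its neighbors. A minority of the Cnmd-high cells carried the level of that group, whose median cell had 0, 54.5, and 112 CPM on the 3 days and whose 75th percentile was at 39.9, 117, and 211 CPM. The median Rgs5-high cell, from 1 of 2 references for free RNA, had 79.8 CPM on day 10 and 123 CPM on day 14. The median Cnmd-high cell thus lay below it. The other reference, the 119 cells of day 14 with 2 or more Ptprc UMIs, held Col10a1 at 1674 CPM summed over cells. The 13 Ihh-high cells of day 7 held Col10a1 at 18975 CPM and Col9a1, Col9a2, and Col9a3 at 982, 1560, and 1961 CPM, but their median cell had 892 CPM of Col10a1 and the 90th percentile was at 72680 CPM, so few cells carried that level.

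The between group was not uniform. Col10a1 ranged from 36.5 CPM at the 10th to 24936 CPM at the 90th percentile of the Cnmd-and-Ihh-high cells on day 10, with a median of 1833 CPM. Col9a1 in the same cells ranged from 1713 to 7363 CPM with a median of 4537 CPM. Ihh-high cells were also spread, from 226 to 60462 CPM of Col10a1 and from 110 to 2796 CPM of Col9a1. The spread of Col10a1 over cells was therefore much wider than that of Col9a1 in the between group.

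**Figure D1:**
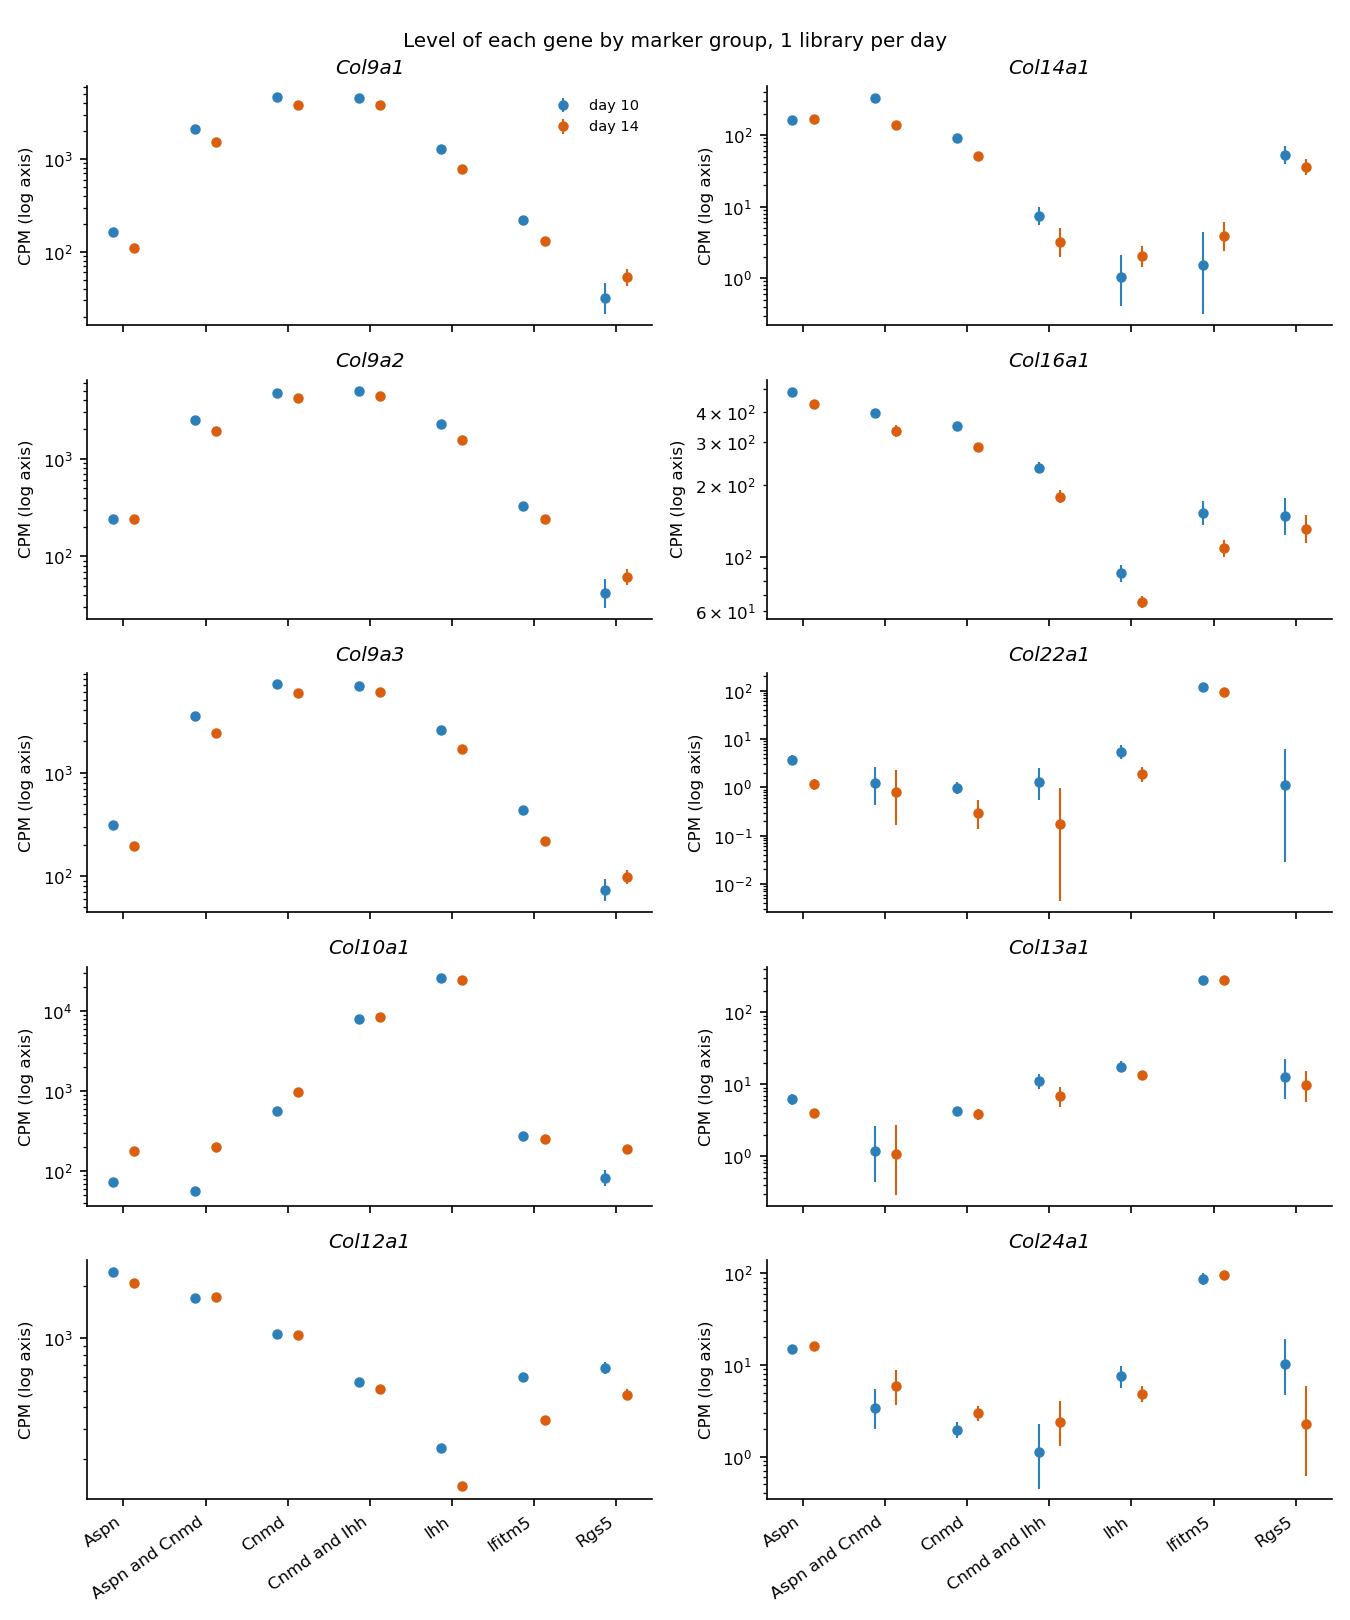
Level of each of the 10 genes in CPM (log axis) in 7 marker groups of cells without Ptprc UMIs, on day 10 (blue) and day 14 (orange), with exact Poisson 95% intervals; a group without a UMI of the gene has no point. The Col9 genes peak in the Cnmd-high groups, Col10a1 in Ihh-high cells (26199 CPM on day 10), Col12a1 and Col16a1 in Aspn-high cells, and Col22a1, Col13a1, and Col24a1 in Ifitm5-high cells.

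To ask which genes differ between the stages of cartilage, Ihh-high cells were compared with Cnmd-high cells of the same library. A gene was called at a difference of 2-fold or more among genes with at least 50 UMIs in both groups together, and there was no test, since cells of 1 library are not replicates. On day 10, 6 of the 10 genes were at least 2-fold lower in Ihh-high cells, against 11.7% of all 12305 genes, and 4 were at least 2-fold higher, against 10.4% of all genes. On day 14, 9 could be compared, of which 6 were lower, against 11.0%, and 2 were higher, against 9.91%.

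The collagen IX chains differed in how far they were lower. Col9a1 was 3.64-fold lower in Ihh-high cells on day 10 and 4.88-fold lower on day 14. Col9a3 was 2.79-fold and 3.53-fold lower, and Col9a2 was 2.07-fold and 2.68-fold lower. The log2 ratios on day 10 were -1.86 (95% interval -1.89 to -1.83) for Col9a1, -1.48 (-1.50 to -1.46) for Col9a3, and -1.05 (-1.07 to -1.02) for Col9a2, which do not overlap, and Col9a2 was close to the 2-fold limit. Col10a1 was 45.9-fold higher on day 10 and 25.5-fold higher on day 14, beside a higher level in Cnmd-high cells on that day. The size of the Col9 ratios depended on where cells high for both markers were placed: counted in both groups, they left Col9a1 at -0.65, Col9a3 at -0.56, and Col9a2 at -0.36 on day 10, each under 2-fold, and 3 of the 10 genes lower.

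Col12a1, Col14a1, and Col16a1 were the other genes at least 2-fold lower in Ihh-high cells. Col12a1 was 4.60-fold and 7.42-fold lower and Col16a1 4.09-fold and 4.38-fold lower on day 10 and day 14. Col14a1 had 7 UMIs in Ihh-high cells on day 10 against 4563 in Cnmd-high cells, a log2 ratio of -6.48 (-7.79 to -5.43), and 38 against 1746 UMIs on day 14. Of the genes that were higher, Col13a1 passed on either day, at 4.14-fold and 3.48-fold, but its level in Ihh-high cells was 17.6 and 13.3 CPM. Col22a1 (5.44 CPM) and Col24a1 (7.50 CPM) passed on day 10, at levels of a few CPM. On day 14, Col24a1 was under 2-fold (log2 ratio 0.70). Col22a1 was not compared on that day, since it had 35 UMIs in Ihh-high and 10 in Cnmd-high cells, under the minimum. With each cell thinned to 2000 UMIs, only 1 gene, Col10a1, was at least 2-fold higher on day 10. Col13a1, Col22a1, and Col24a1 then had too few UMIs to be compared. In the alternatives that gave them a ratio on day 10, the lowest log2 ratios were 1.56, 1.62, and 1.19.

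**Figure D2:**
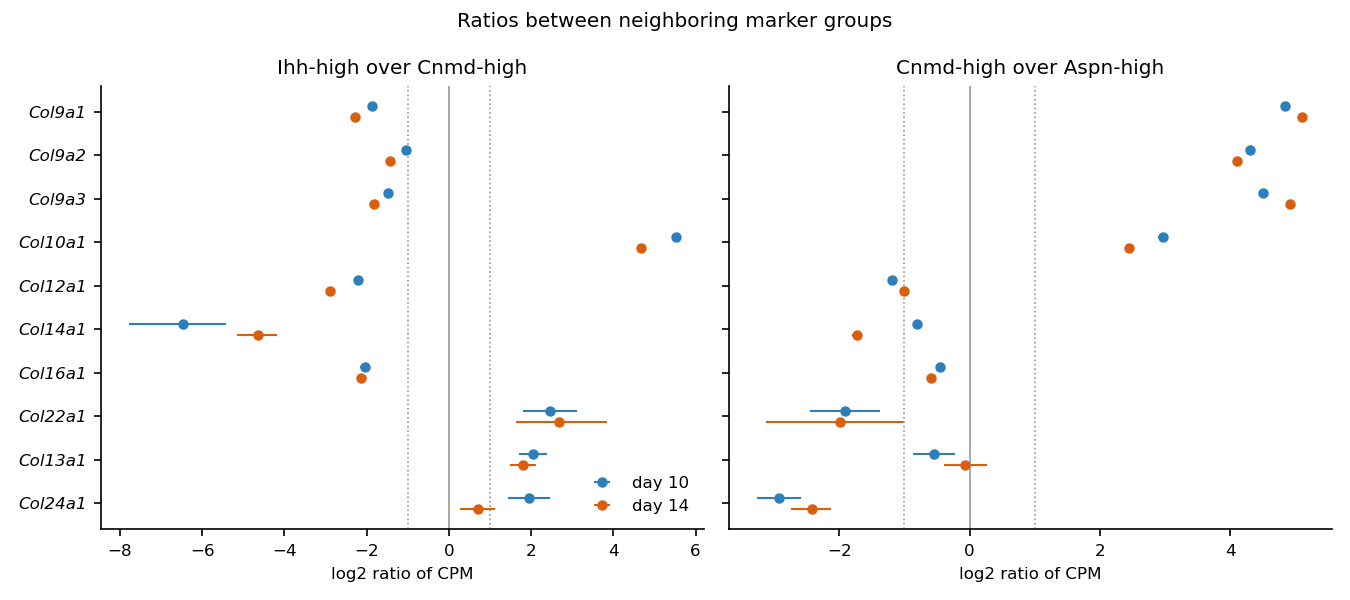
Log2 ratio of CPM for each of the 10 genes, Ihh-high over Cnmd-high cells (left) and Cnmd-high over Aspn-high cells (right), on day 10 (blue) and day 14 (orange), with exact binomial 95% intervals; dotted lines mark 2-fold. In the left panel, Col9a1, Col9a3, and Col9a2 lie left of 0 in that order of size and Col10a1 lies at 5.52 and 4.67.

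To follow the exchange cell by cell, the Cnmd-high, Cnmd-and-Ihh-high, and Ihh-high cells of a library were put in order by an index that used none of the 10 genes. The index was the mean log level of 9 late genes (Ihh, Alpl, Spp1, Ibsp, Mmp13, Panx3, Runx2, Mef2c, and Pth1r) minus that of 8 early genes (Cnmd, Acan, Matn1, Matn3, Hapln1, Ucma, Sox9, and Snorc). The 3264 ordered cells of day 10 and 3041 of day 14 were cut into 10 bins of equal cell number. Positions are percentages of the ordered cells, and their error was taken as 1 bin width, 10 points. A position depends on the make-up of the library as well, and Ihh-high cells filled 80.1% of the last bin on day 10 but already 62.5% of bin 7 on day 14.

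All of the Col9 genes were highest in the first bin and lowest in the last, while Col10a1 ran the other way. From the first to the last bin on day 10, Col9a1 went from 5989 to 1099 CPM, Col9a2 from 5549 to 1994 CPM, and Col9a3 from 8416 to 2196 CPM, and Col10a1 went from 61.5 to 22301 CPM. On day 14, Col9a1 went from 5114 to 433 CPM, Col9a2 from 5277 to 1057 CPM, and Col9a3 from 7617 to 1125 CPM. Col10a1 on day 14 went from 96.3 CPM to its highest level of 23263 CPM in bin 8 and stood at 19741 CPM in the last bin.

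Col9a1 passed below 50% of its highest bin at position 81.0 on day 10 and 53.4 on day 14. Col9a3 passed it at 86.4 and 56.0, and Col9a2 at 89.2 and 61.0. The order Col9a1, Col9a3, Col9a2 was the same on both days. The gap between Col9a1 and Col9a2 was 8.26 points on day 10 and 7.65 points on day 14, less than the width of 1 bin. With 20 bins, each 5 points wide, it was 10.4 and 9.34 points, more than 1 bin, whereas the step from Col9a3 to Col9a2 was 3.73 points on day 10, less than 1 bin, and 6.87 points on day 14. The step from Col9a1 to Col9a3 was 6.70 points on day 10 and 2.47 points on day 14, so that 1 step of the order was under 1 bin on each day.

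Col10a1 reached 50% of its highest bin at position 84.7 on day 10 and 55.8 on day 14, among the falls of the Col9 genes. It came 3.79 points after the fall of Col9a1 on day 10 and 2.40 points after it on day 14, 1.63 and 0.24 points before that of Col9a3 (lags of -1.63 and -0.24), and 4.47 and 5.25 points before that of Col9a2 (lags of -4.47 and -5.25). Each of these lags was smaller than 1 bin, so with 10 bins the rise of Col10a1 and the fall of the Col9 genes could not be placed before or after each other. With 20 bins, Col10a1 came 5.76 points after Col9a1 on day 10, more than 1 bin, and 4.82 points after it on day 14, less than 1 bin, and the lags to Col9a3 and Col9a2 were under 1 bin. Measured at 25% of the highest bin instead, Col10a1 rose at 75.9 and 47.7 and Col9a1 fell at 92.2 and 69.2, so that the start of the Col10a1 rise came 16.3 and 21.4 points before the end of the Col9a1 fall (lags of -16.3 and -21.4). A lower mark places a gradual rise earlier and a gradual fall later, so these lags do not tell which gene changed first. The 2 curves overlap over a stretch wider than 1 bin.

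Genes known for stages of cartilage were placed on the same scale. Cnmd, Ihh, and Mmp13 entered the index, so their direction along the order was given in advance and is no check of it. Cnmd passed below 50% of its highest bin at 76.0 on day 10 and 46.2 on day 14, Ihh reached 50% at 85.5 and 58.6, and Mmp13, the collagenase of terminal hypertrophic chondrocytes, at 89.5 and 85.5. Col2a1, which encodes the fibril that collagen IX decorates and is in no list of the index, passed below 50% at 90.2 and 64.9. Each Col9 gene passed the mark at an earlier position than Col2a1, and only Col9a1 on day 14 did so by more than 1 bin. Col11a1 passed it at 88.0 and 62.2 and Col11a2 at 87.4 and 60.9.

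**Figure D3:**
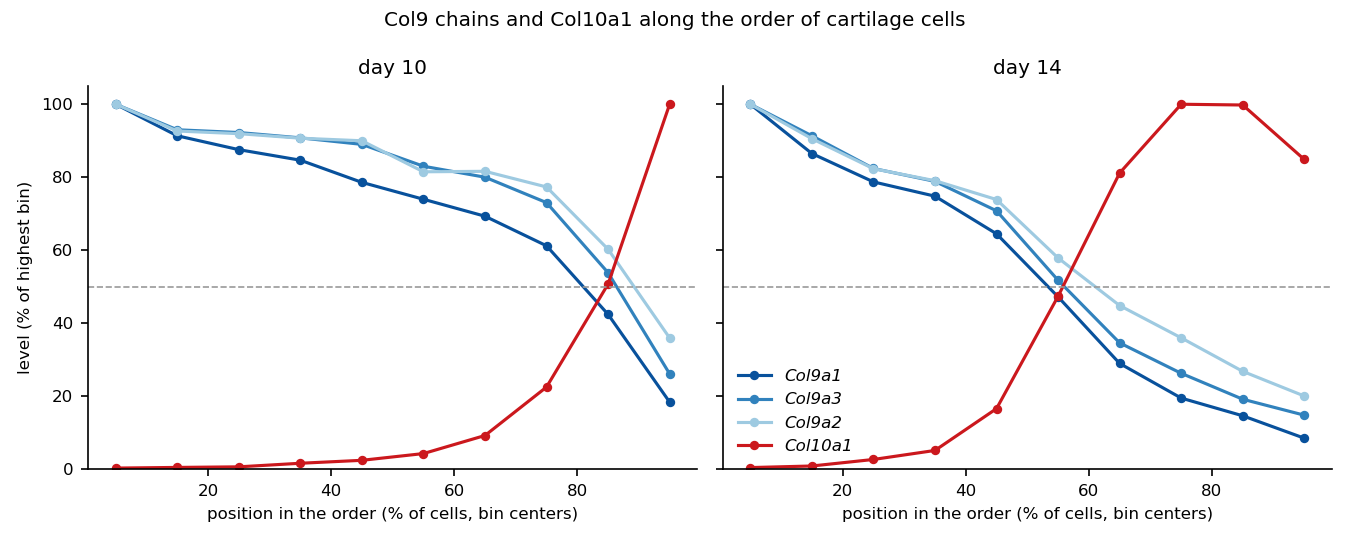
Level of Col9a1, Col9a3, Col9a2, and Col10a1 in 10 bins of ordered cells, as a percentage of each gene's highest bin (vertical axis), against the position in the order in percent of cells (horizontal axis), on day 10 (left) and day 14 (right); the dashed line marks 50%. The curves cross the line between positions 81.0 and 89.2 on day 10 and between 53.4 and 61.0 on day 14.

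The balance of the 3 chains shifted along the way. Each UMI stands for 1 molecule tagged at its 3′ end, so the shares do not scale with gene length, but capture may differ between genes and only the change in a share is read here. In Cnmd-high cells on day 10, Col9a1 made up 28.2% of the Col9 UMIs (28.1 to 28.3%, Clopper-Pearson), and in Ihh-high cells 20.9% (20.5 to 21.3%). On day 14, its share was 27.3% in Cnmd-high cells and 19.4% in Ihh-high cells. The share of Col9a2 went the other way, from 28.6% to 37.3% on day 10 and from 30.1% to 38.9% on day 14, and that of Col9a3 differed by less than 2 points, 43.3% and 41.8% on day 10 and 42.6% and 41.7% on day 14.

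Between the first and the last bin of the order, the share of Col9a1 went from 30.0% to 20.8% on day 10 and from 28.4% to 16.6% on day 14. Col9a2 went from 27.8% to 37.7% and from 29.3% to 40.4%. The shift was thus seen on either day and was larger than the counting intervals. On day 7, Col9a1 made up 35.1% of the Col9 UMIs in Cnmd-high cells and 21.8% (19.5 to 24.3%) in the 13 Ihh-high cells.

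Outside the cartilage groups the levels were low, and the shares were different again. In Aspn-high cells, Col9a1, Col9a2, and Col9a3 stood at 163, 239, and 314 CPM on day 10 and at 110, 244, and 195 CPM on day 14, and Col9a2 made up 33.4% and 44.4% of their Col9 UMIs. In Rgs5-high cells, taken as 1 reference for free RNA, the 3 chains stood at 31.9, 42.1, and 74.0 CPM on day 10 and 53.6, 61.5, and 98.6 CPM on day 14. There, Col9a2 made up 28.5% (20.9 to 37.0%) and 28.8% (24.3 to 33.7%). On day 14, the Col9a2 share of Aspn-high cells therefore lay above that of Rgs5-high cells by more than the intervals. The other reference, day 14 cells with 2 or more Ptprc UMIs, held the 3 chains at 237, 351, and 300 CPM, above Aspn-high cells. Its Col9a2 share was 39.5% (36.7 to 42.3%), and that of Ifitm5-high cells on day 14 was 41.0% (39.2 to 42.8%). A share above that of Rgs5-high cells was thus not particular to Aspn-high cells. In cells high for both Aspn and Cnmd, Col9a1 was at 2098 and 1531 CPM.

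**Figure D4:**
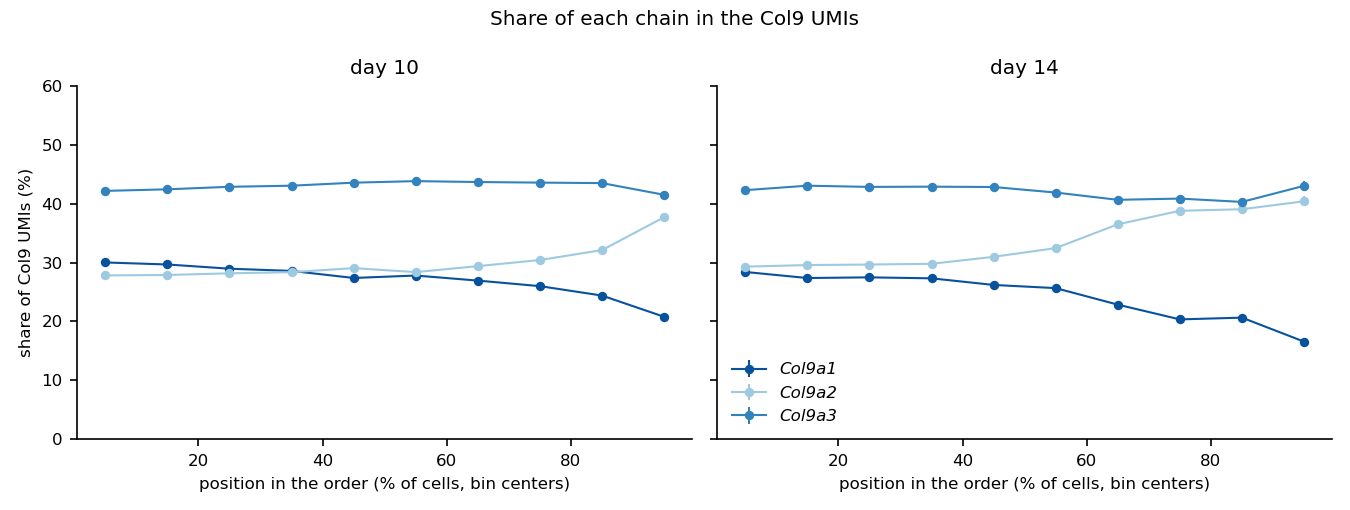
Share of Col9a1, Col9a2, and Col9a3 in the UMIs of the 3 genes together (vertical axis, percent) in 10 bins of ordered cells (horizontal axis, percent of cells), on day 10 (left) and day 14 (right), with Clopper-Pearson 95% intervals, mostly smaller than the points. Col9a1 goes from 30.0% to 20.8% on day 10 and from 28.4% to 16.6% on day 14 while Col9a2 gains.

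Single cells carried both collagens. To compare cells of unequal depth, each was thinned to 2000 UMIs, and a cell counted as positive at 3 or more UMIs of the Col9 genes together or of Col10a1, a limit chosen after values were seen because it left no Rgs5-high cell positive for both. On day 10, 74.7% of Ihh-high cells (70.0 to 79.0%) held both, 9.66% only Col10a1, and 13.3% only Col9. On day 14, 60.3% held both (57.3 to 63.2%), 31.5% only Col10a1, and 6.18% only Col9. Among Cnmd-and-Ihh-high cells, 54.7% and 58.8% held both, and among Cnmd-high cells 5.92% and 9.38%.

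The limit was set so that none of the 65 and 163 Rgs5-high cells held both, and that 0 is no measure of background. At 1 or more UMIs, 7.69% and 5.52% of Rgs5-high cells held both, against 88.0% and 85.1% of Ihh-high cells. Without thinning and at 3 or more UMIs, the share of Ihh-high cells with both was 90.9% on day 10 and 94.0% on day 14. That of Rgs5-high cells was 5.97% and 4.22%, of Aspn-high cells 4.09% and 14.7%, and of Ifitm5-high cells 6.67% and 16.4%. Without thinning and at 1 or more UMIs, 55.2% and 51.2% of Rgs5-high cells held both, against 96.1% and 99.2% of Ihh-high cells. Along the order, cells with Col10a1 only made up 0.308% of bin 9 and 11.2% of bin 10 on day 10, and 6.00% of bin 6 and 34.8% of bin 9 on day 14. Most Ihh-high cells thus carried transcripts of both collagens. Which day had the higher share depended on depth, since it was day 10 after thinning and day 14 at full depth, where the intervals overlapped at 3 or more UMIs.

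**Figure D5:**
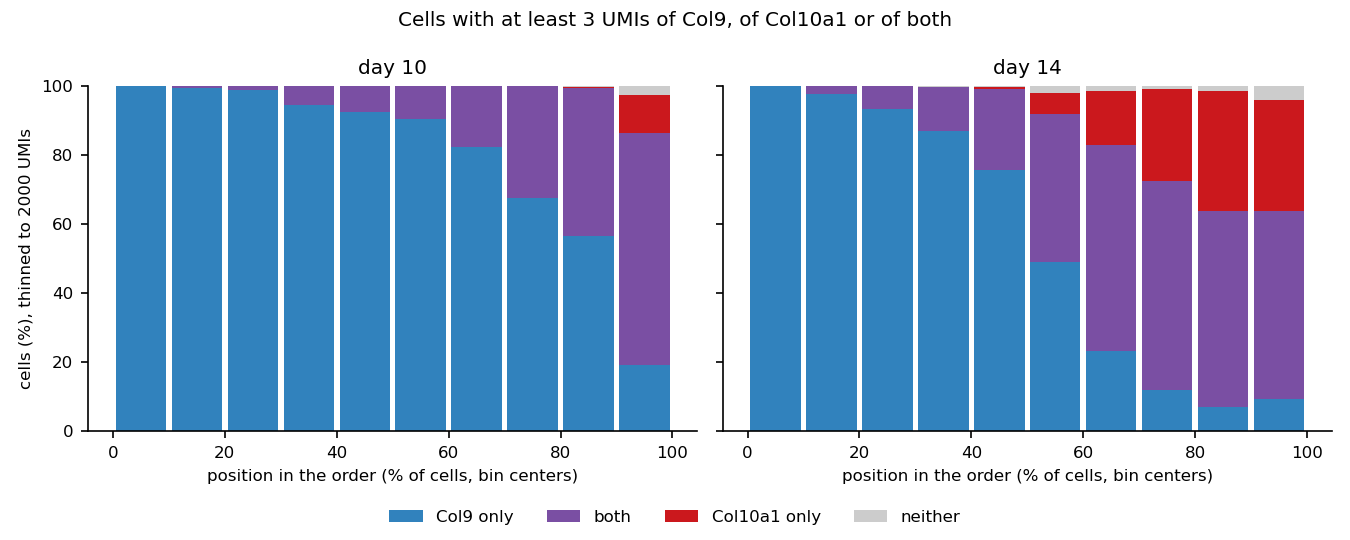
Share of cells (vertical axis, percent, stacked bars) with at least 3 UMIs of the Col9 genes only (blue), of both Col9 and Col10a1 (purple), of Col10a1 only (red), and of neither (gray), each cell thinned to 2000 UMIs, in 10 bins of ordered cells (horizontal axis, percent of cells) on day 10 (left) and day 14 (right). Cells with both reach 67.1% in the last bin on day 10 and 60.7% in bin 8 on day 14.

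Col10a1 was also found outside the Ihh-high group. Cells high for no marker held Col10a1 at 2312 CPM on day 10 and 3999 CPM on day 14, which were 16.0% and 19.9% of all Col10a1 UMIs. Their median cell had 76.7 and 204 CPM, and the cell at the 90th percentile 4648 and 10340 CPM, so a minority of these cells held most of it. The same group held Mmp13 at 2593 and 3257 CPM. These cells were not part of the order.

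Cnmd-high cells were compared with Aspn-high cells to set the genes of cartilage against those of the periosteal progenitors. On day 10, 4 of the 10 genes were at least 2-fold higher in Cnmd-high cells, against 6.84% of all 12876 genes, and 3 were at least 2-fold lower, against 17.5%. On day 14, 4 were higher, against 5.93%, and 4 were lower, against 18.4%. The higher genes were Col9a1 (28.6-fold and 34.4-fold), Col9a2 (19.7-fold and 17.1-fold), Col9a3 (22.7-fold and 30.4-fold), and Col10a1 (7.84-fold and 5.48-fold). The difference in Col10a1 was that of a minority of cells, since the median cell had 54.5 and 112 CPM in the Cnmd-high group and 43.6 and 101 CPM in the Aspn-high group. Col22a1, Col24a1, and Col12a1 were lower on either day, and Col14a1 on day 14 only.

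Col12a1 was highest in Aspn-high cells on each day, at 3035 CPM in the 17 cells of day 7, 2425 CPM on day 10, and 2100 CPM on day 14. In Cnmd-high cells, it stood at 1870, 1065, and 1048 CPM, 2.28-fold lower on day 10 and 2.00-fold lower on day 14, the latter at the limit of a call. It went down further to 557 and 513 CPM in Cnmd-and-Ihh-high cells and to 231 and 141 CPM in Ihh-high cells. Along the order of cartilage cells, Col12a1 was not highest at the start but in the middle, with 671 CPM in the first bin, 1230 CPM in bin 7, and 334 CPM in the last bin on day 10, and 778 CPM, 1072 CPM in bin 4, and 120 CPM on day 14.

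Col14a1 had few UMIs in Ihh-high cells. It was at 160 and 168 CPM in Aspn-high cells, 326 and 138 CPM in Aspn-and-Cnmd-high cells, and 91.6 and 51.0 CPM in Cnmd-high cells on day 10 and day 14. In Ihh-high cells, it was at 1.03 and 2.03 CPM, and in Ifitm5-high cells at 1.51 and 3.92 CPM, from 3 and 20 UMIs. After thinning, 36.9% of Aspn-and-Cnmd-high cells on day 10 had a UMI of Col14a1, against 22.7% of Aspn-high, 14.9% of Cnmd-high, 0.261% of Ihh-high, and 6.15% of Rgs5-high cells. The cells high for both markers thus had the highest level on day 10, but not on day 14.

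Col16a1 differed less between groups. It was at 482 and 433 CPM in Aspn-high cells, 351 and 286 CPM in Cnmd-high cells, 235 and 179 CPM in Cnmd-and-Ihh-high cells, and 86.0 and 65.2 CPM in Ihh-high cells. Cnmd-high and Aspn-high cells differed by 1.37-fold and 1.52-fold, under 2-fold. In Rgs5-high cells, Col12a1 stood at 675 and 474 CPM, Col14a1 at 53.5 and 35.9 CPM, and Col16a1 at 148 and 131 CPM, so that Ihh-high cells lay below Rgs5-high cells in each of these genes on either day.

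The remaining genes, Col22a1, Col13a1, and Col24a1, were highest in the osteoblast group. Ifitm5-high cells were set against Aspn-high cells after the levels were seen. On day 10, 4 of the 10 genes were at least 2-fold higher in Ifitm5-high cells, against 4.36% of all 11299 genes, and 3 were lower, against 23.1%. On day 14, 3 were higher, against 4.85%, and 3 were lower, against 24.3%. Col12a1, Col14a1, and Col16a1 were the lower genes on either day, and Col10a1 (3.80-fold) was the other higher gene on day 10. A minority of cells carried that difference in Col10a1. The median cell had 41.3 CPM in the Ifitm5-high, 43.6 CPM in the Aspn-high, and 79.8 CPM in the Rgs5-high group.

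Col22a1 was at 259 CPM in the 6 Ifitm5-high cells of day 7, 122 CPM on day 10, and 94.9 CPM on day 14. On day 10 and day 14, no other marker group held it above 5.44 CPM. It was 33.0-fold and 81.8-fold higher than in Aspn-high cells, and Ifitm5-high cells held 32.7% of its 739 UMIs on day 10 and 64.5% of its 750 UMIs on day 14. Cells high for no marker held another 42.1% and 19.6%.

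Col13a1 was at 252, 281, and 285 CPM in Ifitm5-high cells on the 3 days, which on day 10 and day 14 was 45.2-fold and 71.2-fold higher than in Aspn-high cells. After thinning, 37.9% and 38.7% of Ifitm5-high cells had a UMI of Col13a1, against 3.08% and 0% of Rgs5-high cells. Col24a1 was at 90.9, 87.7, and 97.3 CPM in Ifitm5-high cells, 5.92-fold and 6.08-fold higher than in Aspn-high cells. Both genes also had a low level late in the cartilage order, where Col13a1 went from 0.324 to 44.0 CPM on day 10 and from 0.149 to 22.4 CPM on day 14, and Col24a1 from 1.30 to 11.2 CPM and from 1.64 to 6.92 CPM.

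Few of the 10 genes differed by 2-fold between day 14 and day 10 within a marker group. In Aspn-high cells, 2 of 10 did, against 3.81% of all genes, and in Cnmd-high cells 1 of 10, against 3.16%. In Ihh-high cells it was 1 of 9, against 3.26%, in Ifitm5-high cells 0 of 9, against 2.18%, and in Rgs5-high cells 1 of 7, against 3.07%. The genes were Col22a1, lower on day 14 in Aspn-high (3.19-fold), Cnmd-high (3.37-fold), and Ihh-high (2.91-fold) cells, each from 78 UMIs or fewer, and Col10a1, higher on day 14 in Aspn-high (2.43-fold) and Rgs5-high (2.30-fold) cells. Col10a1 in Aspn-high cells, 72.8 and 177 CPM, was below that of Rgs5-high cells, 83.1 and 191 CPM, on either day.

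Differences under 2-fold between the days were of one direction for the Col9 genes within the Cnmd-high and Ihh-high groups, but not for Col10a1. In Ihh-high cells, Col9a1 was 1.64-fold, Col9a2 1.46-fold, and Col9a3 1.53-fold lower on day 14, and Col10a1 was 1.06-fold lower. In Cnmd-high cells, the 3 Col9 genes were 1.23-fold, 1.13-fold, and 1.21-fold lower, and Col10a1 was 1.70-fold higher. Between day 7 and day 10, Col10a1 in Cnmd-high cells was 3.09-fold higher on day 10, with Col9a1 1.18-fold lower and Col9a2 1.32-fold higher.

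The other genes of the pathway were counted in the same comparisons. Of the fibril genes that collagen IX decorates (Col2a1, Col11a1, and Col11a2), 2 of 3 were at least 2-fold lower in Ihh-high than in Cnmd-high cells on day 10 and 3 of 3 on day 14, with a median log2 ratio of -1.08 and -1.34, beside 0.04 and 0.01 for all genes. Col2a1 itself had log2 ratios of -0.84 and -1.05. The fibril genes of collagens XII and XIV (Col1a1, Col1a2, Col3a1, Col5a1, and Col5a2) had 1 of 5 lower on day 10 and 3 of 5 on day 14, with medians of -0.28 and -1.13. Of 6 fibril adaptors, 5 were lower on day 10 (Matn1, Matn3, Matn4, Dcn, and Fmod) and 4 on day 14 (Matn3, Matn4, Fmod, and Comp), with medians of -1.80 and -1.94. Of all genes, 11.7% were lower on day 10 and 11.0% on day 14.

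Of 11 genes of regulators, 10 could be compared between Ihh-high and Cnmd-high cells. On day 10, 5 were higher, namely Runx2, Mef2c, Foxa2, Dlx5, and Pth1r, and on day 14 the first 4 of these, against 10.4% and 9.91% of all genes, with medians of 0.77 and 0.68 for the list. Runx2 and Mef2c, which encode transcription factors of hypertrophy, had log2 ratios of 1.37 and 1.57 on day 10 and 1.72 and 1.64 on day 14. Sox5 was lower on either day (-2.29 and -1.69), and Sox9, which encodes the main chondrocyte factor, differed by under 2-fold (-0.38 and -0.07). In Cnmd-high against Aspn-high cells, 7 of the 11 were higher on either day and 1 was lower, with Sox9 at 1.32 and 1.19. In that comparison, 3 of 3 partner fibril genes were higher. Of all genes, 6.84% and 5.93% were higher there and 17.5% and 18.4% lower, on day 10 and day 14.

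Of the 2 short-chain relatives of collagen X, Col8a1 and Col8a2, both were lower in Cnmd-high than in Aspn-high cells on either day, against 17.5% and 18.4% of all genes. Col8a2 was also lower in Ihh-high than in Cnmd-high cells (log2 ratios of -2.76 and -2.27), against 11.7% and 11.0% of all genes. Of the 5 other collagens with interrupted helices that were found (Col19a1, Col20a1, Col17a1, Col23a1, and Col25a1), none was above 4.62 CPM in any bin of the order. On day 10, 1 of these 5 was higher in Ihh-high than in Cnmd-high cells, against 10.4% of all genes, and 2 were lower, against 11.7%. On day 14, 0 of the 3 that could be compared were higher, against 9.91%, and 1 was lower, against 11.0%.

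The patterns of the genes over groups were set side by side with those of all other genes. Over 18 profiles, each a group of at least 50 cells in 1 library, the 3 Col9 genes correlated with each other at r = 0.98 to 0.99, on log2(CPM + 10). Groups of 1 library share its depth and its free RNA, so r is a description. The nearest other genes among 2423 with at least 100 CPM were Stk26 for all 3 (r = 0.98, 0.98, and 0.97), followed by Col27a1 for Col9a1 (0.97) and Col9a3 (0.97) and Pak3 for Col9a2 (0.98). The next were Papss2, needed for sulfation of cartilage proteoglycans, for Col9a1 (0.97), Comp for Col9a2 (0.96), and Col2a1 for Col9a3 (0.97).

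Col10a1 was most like Cst3 (0.96), Spsb1 (0.96), and Cd9 (0.95) and had r = 0.42 to 0.52 with the Col9 genes. Col12a1 and Col16a1 were alike (0.96), and the nearest other genes were Tgfbi (0.94), Dclk1 (0.93), and Aebp1 (0.92) for Col12a1 and Thbs3 (0.95), Txndc5 (0.94), and Loxl2 (0.92) for Col16a1. Col14a1 was nearest to Igsf10 (0.96), Crispld2 (0.95), and Oaf (0.94). Col22a1 and Col13a1 (0.96) shared Cdo1 (0.99 and 0.98) and Slc36a2 (0.97 and 0.96), with Car3 (0.98) for Col22a1. Col24a1 stayed below 100 CPM in every group of 50 or more cells and was given no nearest gene, and it correlated with Col22a1 at 0.94 and with Col13a1 at 0.90.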

How the data were processed

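Gene counts of single cells from 3 libraries were analyzed. The authors aligned the reads and collapsed UMIs with Cell Ranger, per the labels version 3.0 with mm10 (the methods of the study name a later version and kit), and deposited raw counts, as whole numbers of UMIs for every gene in every cell. Cells with 500 to 5000 genes, at most 10% mitochondrial and 5% hemoglobin UMIs, and no Ptprc UMI were kept. Doublets had only the upper limit on genes, and 21 and 103 cells at day 10 and day 14 with other marker combinations were set apart. Scripts ran in Python 3.11.15 with pandas 2.3.3, matplotlib 3.10.9, scipy 1.17.1, scikit-learn 1.9.0, and numpy 2.4.6, and were tested on simulated data. Ratios have exact binomial intervals and shares Clopper-Pearson intervals, at 95%. Members and lists were chosen with earlier results of these data known. Named genes were the 10 members, the fixed lists, and for each member with at least 100 CPM the 3 most correlated genes, of which 1 is not reported here; genes not in these were named after their values were seen. Col21a1 was not matched. Alternatives covered limits, thresholds, scaling, thinning, the index, and bins.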

Additional observations from a re-analysis of the deposited data

Results flagged for a closer look

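Between day 10 and day 14, 2 of the genes differed in opposite directions in different groups, by 1.5-fold or more each way, and the difference between groups was not tested. Col9a1 was lower at day 14 in Ihh-high cells (log2 ratio -0.72) and in Ifitm5-high cells (-0.76) but higher in Rgs5-high cells (0.75), where it rests on 28 and 94 UMIs and where Col9a2 and Col9a3 were also higher (0.55 and 0.41). Col24a1 was higher in Cnmd-high cells (0.61) and lower in Ihh-high cells (-0.63), each from 102 UMIs or fewer per library.

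The 119 cells of day 14 with 2 or more Ptprc UMIs were in no marker group. They held Col10a1 at 1674 CPM (1607 to 1744), against 191 CPM in the 166 Rgs5-high cells of the same library. The same cells held Col9a1 at 237 CPM, Col9a2 at 351 CPM, and Col9a3 at 300.2 CPM, against 53.6, 61.5, and 98.6 CPM. Markers of the Aspn group summed to 756 CPM and those of the Ihh group to 4384 CPM in them, beside 181879 CPM of blood cell markers. Among the 6284 such cells of day 7, Col10a1 stood at 49.9 CPM. Whether doublets or free RNA had a part in this was not tested.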

How the results depend on the processing

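Of 141 counts of genes under the alternatives, 120 stayed within 1.5 times the reported count. No log2 ratio of a gene at least 2-fold different between Ihh-high and Cnmd-high or between Cnmd-high and Aspn-high cells changed its sign. When a cell could count in several groups, 3 genes were lower in Ihh-high than in Cnmd-high cells at day 10, and 4 differed between the days in Aspn-high cells. With cells thinned to 2000 UMIs, 1 was higher in Ihh-high cells at day 10, 2 were lower in Cnmd-high than in Aspn-high cells at day 14, and 0 differed between the days in Cnmd-high, Ihh-high, and Rgs5-high cells; fewer UMIs then leave fewer genes to compare. With thresholds doubled, 0 differed between the days in Aspn-high and Cnmd-high cells and 2 in Ifitm5-high cells. Without the upper limit on genes, 2 differed in Ihh-high and 1 in Ifitm5-high cells. In Ifitm5-high cells, 1 differed without mitochondrial genes and 4 collagens in the total, 1 with the mean of per-cell CPM, and 1 without a minimum of UMIs, and in Rgs5-high cells 0 with the mean and 3 without the minimum. With the level of Rgs5-high cells subtracted, an alternative chosen after seeing the data, 4 differed between the days in Aspn-high, 3 in Cnmd-high, 2 in Ihh-high, and 4 in Ifitm5-high cells. The cause of these shifts was not tested.

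Of 80 lags of the Col10a1 rise behind a Col9 fall, 73 stayed within 10 points of the reported value. With late genes only at day 14, the lags were -8.21 for Col9a1, -35.9 for Col9a2, and -10.8 for Col9a3. At 25% of the highest bin, they were -16.3 for Col9a1 at day 10 and -21.4, -39.9, and -29.0 for Col9a1, Col9a2, and Col9a3 at day 14. With early genes only at day 10 and with the first principal component at day 14, Col10a1 came 11.6 and 10.2 points after Col9a1, more than 1 bin, as it did with 20 bins at day 10 (5.76 points, bins of 5). With Cnmd and Ihh left out of the index, the lags for Col9a1 were 0.07 at day 10 and 0.67 at day 14. In that setting, Col10a1 came 10.3 points before Col9a2 at day 14, more than 1 bin. With late genes only at day 10, the lag for Col9a1 was -5.54. Col9a2 did not pass the mark with late genes only, with 5 bins, or at 25%, and Col9a3 not at 25%, all at day 10. The order Col9a1, Col9a3, Col9a2 held in 27 of 28 alternatives, counting a gene that did not pass as last, and could not be told at 25% at day 10. No replicate could be left out. No paired analysis was possible because each day has 1 library and no result comes from a test. Depth limits Col22a1 and Col24a1 most.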
